A study of Mus musculus with 4 samples.

Results

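Npffr1 and Svop are genes of nervous tissue that were nearly absent from control mouse epidermis and were read in keratinocytes lacking 3 histone methyltransferases. Npffr1 encodes a receptor for RFamide neuropeptides such as neuropeptide FF, coupled to inhibitory Gi/o proteins that lower cyclic AMP. Svop encodes a transporter-like membrane protein of synaptic vesicles, related in sequence to the SV2 proteins. Neither has a known role in the skin epithelium, where keratinocytes divide in a basal layer, move outward into suprabasal layers or enter hair follicles. They are 2 of the 56980 genes in the matrices, and were selected by symbol on their high counts in knockout against control keratinocytes in these same libraries. That difference is therefore given as a description, without a test, and no threshold set the choice.

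The cells came from dorsal skin of mouse embryos and were sorted as positive for Epcam and α6 integrin, proteins of epithelial cells and of cells on the basement membrane. The labels give the stage as E16.5, whereas the litter list of the study places its single-cell litter a day earlier. The 2 Ctrl libraries carried Suv39h1 f/f, Suv39h2-/-, Setdb1 f/f and K14CreERT2-, and the 2 TKO (triple knockout) libraries the same alleles with K14CreERT2+. Tamoxifen, which activates this Cre, was given in both groups, and the deletion of Suv39h2 was thus shared by Ctrl and TKO. The K14 promoter drives Cre in basal keratinocytes and their progeny, the study describes the knockout embryos used for single cells as mosaic, and each library was 1 embryo. The 3 genes encode enzymes that write H3K9me3, a mark on histones of repressed chromatin.

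The matrices held 3804 to 5785 barcodes and 70749496 to 89655247 unique molecular identifiers (UMIs, each 1 captured molecule) per library. After filtering, 9241 keratinocytes were kept, 2850 and 2996 in Ctrl and 1592 and 1803 in TKO, with 5040 basal-like, 2080 suprabasal-like and 1585 hair follicle-like cells named from marker genes. The other 536 keratinocytes were 106 Merkel-like cells and cells of unnamed clusters, and 1523 non-epithelial cells (fibroblast-, immune-, erythroid-, melanocyte- and endothelial-like) were kept apart. The suprabasal markers summed to 21049 to 47955 CPM (UMIs per 1000000) in suprabasal-like and 378 to 1017 CPM in basal-like cells, and the hair follicle markers to 1333 to 1692 CPM in hair follicle-like and 265 to 365 CPM in basal-like cells. The median depth of a keratinocyte was 21958 and 17325.5 UMIs for Ctrl against 29896.5 and 27986 for TKO, so shares of cells with a UMI were read after thinning every cell to 5000 UMIs. Setdb1 reached 67.6 and 58.2 CPM in Ctrl keratinocytes and 39.5 and 42.4 CPM in TKO, whereas the Suv39h1 ranges overlapped (24.4 and 25.3 against 24.9 and 19.96 CPM). Reads outside a floxed exon are still counted, so these levels do not measure the deletion. Among 19789 barcodes, 39 occurred in more than 1 library, 9 of them among cells that passed the filter.

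Npffr1 (ENSMUSG00000020090) lies on the plus strand of chromosome 10, GRCm39, from 61430652 to 61464344, with 4 exons in its canonical transcript. Its 5′ part overlaps Gm28447, a long noncoding RNA gene on the other strand. Svop (ENSMUSG00000042078) lies on the minus strand of chromosome 5 from 114164851 to 114229631, with 16 exons, and overlaps the deubiquitinase gene Usp30 on the other strand. The promoters of both are shown because the genes differ there in CpG content, from 250 bases before to 50 after the canonical start, read 5′ to 3′ on the gene's strand from the GRCm39 genome, with a GC box in capitals.
Npffr1, chr10:61431021-61431320, plus strand: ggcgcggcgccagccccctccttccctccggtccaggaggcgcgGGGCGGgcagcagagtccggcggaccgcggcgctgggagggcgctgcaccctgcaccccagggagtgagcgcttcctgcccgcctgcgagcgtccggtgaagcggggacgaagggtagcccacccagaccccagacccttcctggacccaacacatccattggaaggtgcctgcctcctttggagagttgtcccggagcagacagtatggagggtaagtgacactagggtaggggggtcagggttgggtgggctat
Svop, chr5:114229582-114229881, minus strand: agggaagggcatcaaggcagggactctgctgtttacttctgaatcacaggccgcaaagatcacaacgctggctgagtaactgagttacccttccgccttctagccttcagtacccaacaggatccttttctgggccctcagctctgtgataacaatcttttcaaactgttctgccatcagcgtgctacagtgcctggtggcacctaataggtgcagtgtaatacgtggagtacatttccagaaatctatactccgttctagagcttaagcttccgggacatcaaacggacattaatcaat
That of Npffr1 held 21 CpG dinucleotides and a GC content of 69.0%, percentile 74.4 for CpG among 21757 protein-coding promoters, whose median was 11. That of Svop held 8 CpG and a GC content of 48.0%, at percentile 41.1. Both strands were searched for 4 motifs, and with 1 match none overlapped. A GC box, GGGCGG, occurred once, in Npffr1, and in 42.5% of all promoters. A TATA box, TATAAA, occurred in neither, and in 13.2% of all. Part of the site of the neuronal repressor REST, CAGCACC, was in neither, and in 6.6% of all. Another part of that site, GGACAG, was in neither, and in 22.6% of all. A match or its absence describes letters only.

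In Ctrl keratinocytes, Npffr1 had 1 and 3 UMIs among 68354405 and 57437733. In TKO keratinocytes it had 1211 and 1318 UMIs, 22.8 and 24.2 CPM, among 53229029 and 54397147. The TKO libraries agreed closely and did not overlap with Ctrl. The ratio of summed counts was 739, with a 95% counting interval of 288 to 2714 that covers counting error only. Svop, at 4 and 4 UMIs in Ctrl, had 360 and 201 in TKO, or 6.76 and 3.70 CPM. Both TKO libraries were above Ctrl, but replicate 1 was higher than replicate 2. The Svop ratio was 82.0 (41.3 to 191). No Ctrl keratinocyte held more than 1 UMI of either gene. Npffr1 stood at 0.0146 and 0.0522 CPM in Ctrl keratinocytes and 0.260 and 0.268 CPM in non-epithelial Ctrl cells, the latter from 1 UMI in each library. Svop stood at 0.0585 and 0.0696 CPM against 0.260 and 0 CPM, the latter from 1 and 0 UMIs. With so few molecules, these Ctrl levels were not set apart.

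The 3 keratinocyte classes showed the same contrast. In basal-like cells of Ctrl no library had a Npffr1 UMI (0 and 0), and those of TKO had 667 and 677 (19.99 and 23.4 CPM), at least 446-fold higher when the Ctrl sum is set to 3 counts. Suprabasal-like cells, which have left the basal layer, had 1 and 0 Npffr1 UMIs in Ctrl against 192 and 207 in TKO (20.9 and 14.4 CPM). Hair follicle-like cells had 0 and 1 in Ctrl and 82 and 84 in TKO (11.5 and 9.39 CPM). Among these 3 classes Npffr1 was lowest in hair follicle-like cells in both TKO libraries. That order rests on leaving out an unnamed cluster of 36 and 35 TKO cells, led by Krt79 and with the hair follicle marker Pthlh among its leading genes, where Npffr1 stood at 75.7 and 19.994 CPM (99 and 16 UMIs). Counted together with it, hair follicle-like cells had 21.5 and 10.3 CPM of Npffr1 and 3.57 and 1.54 CPM of Svop. Svop in basal-like cells counted 0 and 2 UMIs in Ctrl against 173 and 57 in TKO (5.19 and 1.97 CPM). It had 3 and 2 in Ctrl and 37 and 14 in TKO in suprabasal-like cells (4.04 and 0.975 CPM), and 0 and 0 against 12 and 8 in hair follicle-like cells (1.69 and 0.894 CPM). Outside basal-like cells these Svop levels rest on few molecules. In the other keratinocytes Npffr1 stood at 75.0 and 162 CPM in TKO (270 and 350 UMIs) against 0 and 2 UMIs in Ctrl. Svop stood there at 38.3 and 56.5 CPM (138 and 122 UMIs) against 1 and 0, the highest level of both genes in either TKO library.

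**Figure D1:**
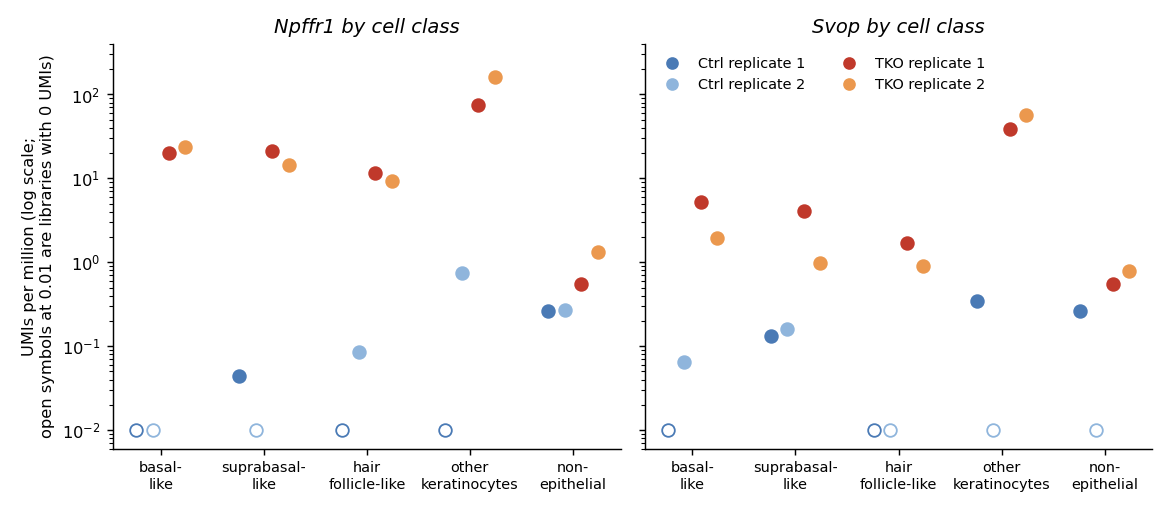
Level of Npffr1 (left) and Svop (right) in each library, as CPM on a log axis, by cell class; each point is 1 library and open symbols mark libraries with 0 UMIs. TKO libraries sat above Ctrl in each keratinocyte class, and non-epithelial TKO cells stayed at 0.549 to 1.34 CPM for Npffr1.

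Non-epithelial cells of the same libraries gave the background. Npffr1 had 1 and 1 UMIs there in Ctrl and 6 and 17 in TKO (0.549 and 1.34 CPM). Svop had 1 and 0 against 6 and 10 (0.549 and 0.789 CPM). Of these TKO molecules, 13 of 23 for Npffr1 and 13 of 16 for Svop fell in 49 melanocyte-like cells, in 5 and 6 cells respectively. Without them, a choice made after seeing the data, Npffr1 stood at 0.591 and 0.331 CPM and Svop at 0.197 and 0.0828 CPM in the other non-epithelial TKO cells. The part of keratinocyte RNA in melanocyte-like cells was not tested. The 182 erythroid-like TKO cells, with 5164369 UMIs, had 0 UMIs of either gene.

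Between basal-like and suprabasal-like cells, shares of cells with a UMI kept the order of the levels for Npffr1 in replicate 1 and Svop in replicate 2, and turned it in the other cases. At 5000 UMIs per cell, Npffr1 was found in 7.69% of basal-like cells of TKO replicate 1 (95% exact binomial interval 6.13 to 9.51%) and 7.32% (5.75 to 9.16%) in replicate 2. It was found in 10.1% and 8.22% of suprabasal-like cells and 4.65% and 3.05% of hair follicle-like cells. In non-epithelial TKO cells (median 18958 and 18435.5 UMIs before thinning) the shares were 0.199% and 0.175%, below the intervals of all 3 keratinocyte classes. In Ctrl basal-like cells it was 0 of 1403 and 0 of 1625, which allows shares of up to 0.214% and 0.185%, taken as 3 counts of the cells (the exact binomial upper limits are 0.263% and 0.227%). Svop was found in 1.48% and 0.732% of basal-like, 2.02% and 0.235% of suprabasal-like and 0.930% and 0.305% of hair follicle-like TKO cells. In non-epithelial cells its shares were 0.199% and 0.349%, and without melanocyte-like cells 0 of 473 and 0 of 553. The interval of basal-like cells in replicate 2 (0.295 to 1.503%) included 0.349%, and the suprabasal-like and hair follicle-like shares of replicate 2 were below it, so at this depth none of these was told apart from all non-epithelial cells. In replicate 1 the interval of hair follicle-like cells (0.113 to 3.32%) included 0.199%, so that class was not told apart there either. With all UMIs counted, 18.8% and 15.8% of TKO keratinocytes held Npffr1 and 8.98% and 3.55% held Svop.

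**Figure D2:**
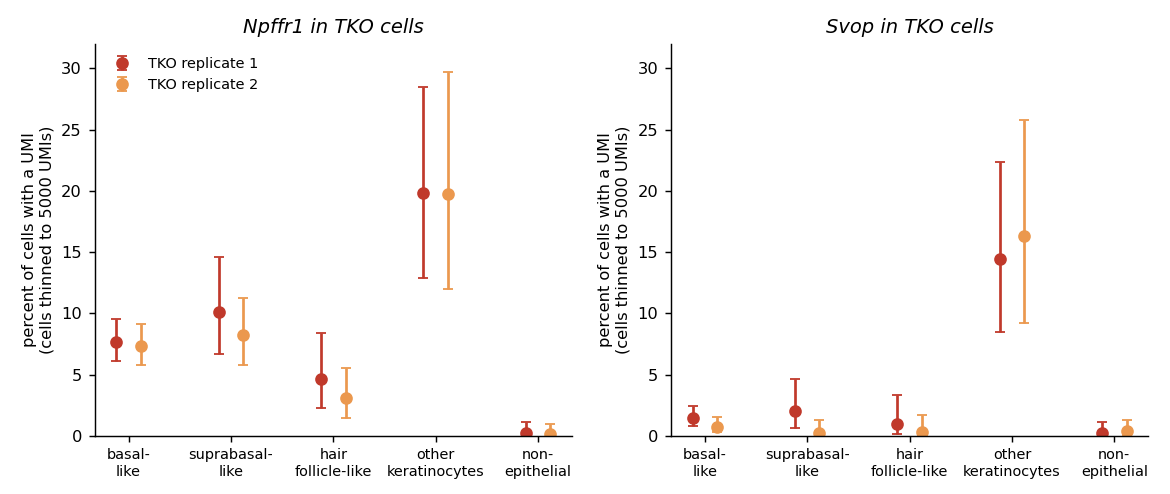
Percent of TKO cells with at least 1 UMI of Npffr1 (left) or Svop (right) after thinning to 5000 UMIs per cell, by class and library, with exact 95% binomial intervals as bars. Npffr1 was near 7% in basal-like cells and under 0.2% in non-epithelial cells, and both genes were highest in the keratinocytes outside the 3 named classes.

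The classes were also compared within TKO, a contrast other than the one between TKO and Ctrl that selected the genes. It uses the same TKO counts, and both genes passed the expression filter through those counts, so its p-values are descriptive. Clusters were built without either gene and without genes that changed between genotypes. UMIs were summed per library and class and fitted with edgeR's quasi-likelihood test across 17179 genes. Npffr1 fell in hair follicle-like against basal-like cells by 1.16 on the log2 scale (SE 0.22, adjusted p = 0.00681), 2.24-fold, lower in 2 of 2 TKO libraries as the classes were drawn. It was also higher in suprabasal-like than in hair follicle-like cells, by 0.997 (SE 0.23, adjusted p = 0.0070). Suprabasal-like and basal-like cells differed by -0.17 (95% interval -0.57 to 0.23, adjusted p = 0.531), a difference not detectable here. Svop fell by 1.52 in hair follicle-like against basal-like cells (SE 0.39, adjusted p = 0.0224). Its other differences did not pass, at -0.46 for suprabasal-like minus basal-like (-1.09 to 0.17, adjusted p = 0.271) and 1.07 for suprabasal-like minus hair follicle-like (0.22 to 1.91, adjusted p = 0.0659). Class differences were common among all genes tested: 50.7% were called for suprabasal minus basal, 27.1% for hair follicle minus basal and 58.5% for suprabasal minus hair follicle. These hair follicle-like differences depended on how the class was drawn. With the unnamed cluster led by Krt79 counted as hair follicle, a fit added after the data were seen, none passed: hair follicle minus basal was -0.63 for Npffr1 (edgeR adjusted p = 0.158) and -0.58 for Svop (adjusted p = 0.227), and suprabasal minus hair follicle was 0.44 for Npffr1 (adjusted p = 0.245). The hair follicle-like difference also missed the threshold without TKO replicate 2 for Npffr1 (-0.93, adjusted p = 0.0575), and for Svop without either TKO replicate (adjusted p = 0.262 and 0.0502) and with DESeq2 (0.109).

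Both genes were highest in 1 small cluster that the markers left unnamed, with 1 and 2 Ctrl cells and 40 and 33 TKO cells. The unnamed cluster gave Npffr1 149 and 318 UMIs, or 118 and 350 CPM, and Svop 117 and 89 UMIs, or 92.5 and 97.9 CPM. At 5000 UMIs, 32.5% and 40.6% of its TKO cells had Npffr1 and 35.0% and 34.4% had Svop, whereas no other cluster with 20 or more TKO cells in a library exceeded 27.3% for Npffr1 or 5.88% for Svop. The cluster made up 2.51% and 1.83% of TKO keratinocytes but held 12.3% and 24.1% of their Npffr1 UMIs and 32.5% and 44.3% of their Svop UMIs. Svop was thus more concentrated there than Npffr1 in both libraries. The basal keratin Krt5 was in 100% of its TKO cells, at 3495 and 3902 CPM against 3801 and 4756 CPM in basal-like cells. Krt14 (4202 and 5203 against 6622 and 8999 CPM) and Trp63 (229 and 273 against 426 and 575 CPM) were also lower than in basal-like cells. The basal keratin Krt15 was higher in replicate 1 and lower in replicate 2 (2309 and 977 against 2018.5 and 2173 CPM). Of the suprabasal keratins, Krt10 was higher in both libraries (77.5 and 271 against 42.7 and 76.0 CPM) and Krt1 lower (15.8 and 33.0 against 29.5 and 52.5 CPM). Krt7, a keratin of simple epithelia that was picked after its values were seen, was in 92.5% and 87.9% of the cluster's TKO cells. Its level there was 648 and 326 CPM, against 38.6 and 19.2 CPM in basal-like cells of the same libraries. Other keratins of simple epithelia were in few of the cluster's TKO cells, Krt8 in 7.5% and 6.06%, Krt18 in 17.5% and 21.2% and Krt19 in 20% and 9.09%. Psca, Mal, Krt4 and Krt13, which led the cluster by fold, came from few cells, with Psca in 7.5% of cells in replicate 1 and 0% in replicate 2. Outside this cluster Npffr1 still stood at 20.4 and 18.7 CPM and Svop at 4.68 and 2.09 CPM in TKO. Without alignment of the libraries, 55 of these 73 TKO cells joined basal-like clusters, and with a finer clustering 48 did, and in both the Svop difference of suprabasal-like from basal-like cells passed (log2 -1.16, adjusted p = 0.00764, and -1.59, adjusted p = 0.00463).

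**Figure D3:**
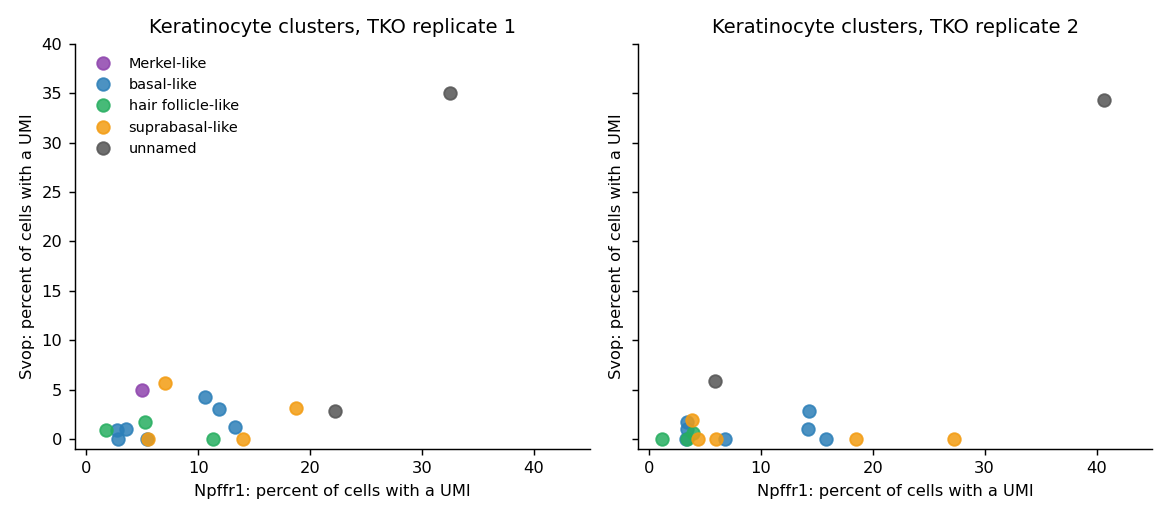
Share of cells with a UMI of Npffr1 (x axis) and Svop (y axis), in percent at 5000 UMIs per cell, for each keratinocyte cluster with at least 20 cells in TKO replicate 1 (left) or 2 (right), coloured by class. One unnamed cluster stands apart in both libraries, at 32.5% and 40.6% for Npffr1 and 35.0% and 34.4% for Svop.

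When the libraries were clustered without alignment, 2 clusters consisted of at least 90% TKO cells, 1 basal-like (led by Bex1, Tagln and Acta2) and 1 suprabasal-like (led by Krt16, Sprr1b and Krt6a). In them Npffr1 was found in 10.2% and 11.8% of TKO cells, against 7.24% and 5.68% of the TKO cells in clusters shared with Ctrl. For Svop the shares were 3.32% and 2.80% against 1.66% and 0.700%. The basal-like one carried the difference, with Npffr1 in 10.5% and 19.7% and Svop in 3.54% and 6.14% of cells. The suprabasal-like one had Npffr1 in 8.22% and 5.15% and Svop in 1.37% and 0%, which for Npffr1 in replicate 2 and for Svop in both libraries was below the clusters shared with Ctrl. Both genes were thus also present in TKO cells that clustered with Ctrl cells, and no test is given because the split was drawn from expression.

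Within TKO keratinocytes the counts were uneven from cell to cell. Npffr1 was at 0 UMIs in 1293 of 1592 and 1518 of 1803 cells, at 1 UMI in 96 and 96, and at 3 or more in 154 and 134, with up to 45 and 69 in a cell. The 159 and 180 cells with the most Npffr1 held 84.8% and 91.4% of its UMIs. Svop was at 0 in 1449 and 1739 cells and at 3 or more in 48 and 21, with up to 25 and 24. The variance over the mean, 1 for counts that scatter by sampling alone in cells of equal depth, was 8.96 and 16.02 for Npffr1 and 5.09 and 9.26 for Svop. Most knockout keratinocytes thus had no captured molecule while a minority held many.

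The genes were found together more often than the product of their shares. At 5000 UMIs per cell, 10 of 1587 keratinocytes of TKO replicate 1 had both, against 3.23 from independent shares, and 8 of 1796 in replicate 2, against 1.69. Svop was in 7.41% (3.61 to 13.2%) of cells with a Npffr1 UMI and 1.93% (1.29 to 2.78%) of cells without one in replicate 1, and in 6.06% (2.65 to 11.6%) and 0.901% (0.505 to 1.48%) in replicate 2. At 10000 UMIs these shares were 21.2% against 3.36% and 8.95% against 0.909%. Within basal-like cells, 5 cells had both against 1.15 in replicate 1, and 2 against 0.513 in replicate 2. In the unnamed cluster, 26 of 73 TKO cells had both at full depth, 0.959 times the product of its own shares, and without that cluster the ratio over keratinocytes at 5000 UMIs averaged 3.70, against 3.91 with it. These are ratios of small counts and describe cells of 2 embryos.

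**Figure D4:**
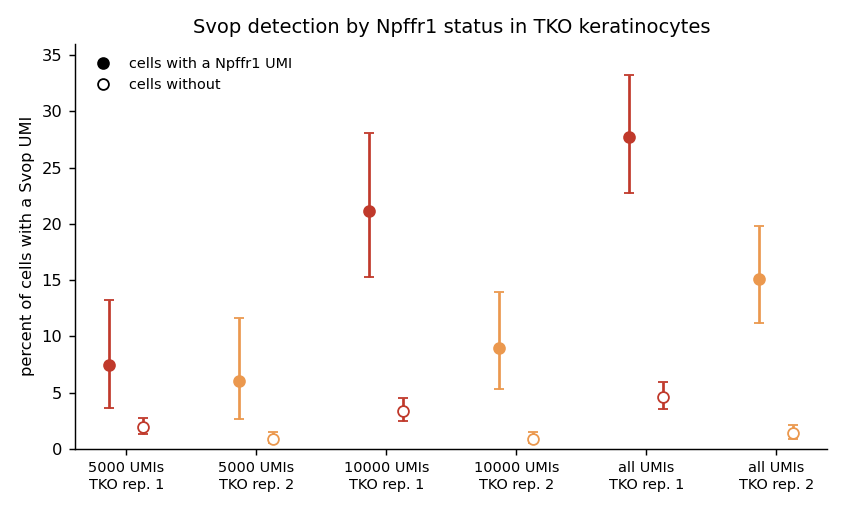
Percent of TKO keratinocytes with a Svop UMI among cells with (filled) and without (open) a Npffr1 UMI, in each TKO library at 3 depths per cell, with exact 95% binomial intervals. The filled points lie above the open ones in both libraries at each depth, at 7.41% against 1.93% and 6.06% against 0.901% for 5000 UMIs.

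To see which genes had the most similar pattern, log2(CPM + 1) was correlated over 16 sums (4 libraries by 3 keratinocyte classes and non-epithelial cells) among 18126 genes. The sums share libraries, and the Ctrl-to-TKO difference that selected both genes drives these values, so they are descriptive. Those closest to Npffr1 were 1700108F19Rik (Pearson's r = 0.994), Gm42653, ENSMUSG00000120786, 1700030C10Rik and Gm36551, all from 0.981 to 0.994. Those closest to Svop were Nkx2-9 (r = 0.975), a homeobox gene of the ventral neural tube, followed by D7Ertd128e, 1700121C08Rik, Acte1 and Gm8618 (0.931 to 0.964). Npffr1 and Svop correlated at 0.903 with each other, rank 63 for Npffr1 and 20 for Svop.

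Cell-by-cell detection at 5000 UMIs gave other names. The phi coefficient of detection with Npffr1 over TKO keratinocytes was highest for Gria3, an AMPA-type glutamate receptor subunit (mean of 2 libraries 0.370), then Trp53inp1, a p53 target, the drug efflux pump gene Abcb1b, the dynamin gene Dnm3 and the DNA repair gene Mgmt (0.289 to 0.317). For Svop it was highest for Arhgap28 (0.239), then Cyyr1, Gria3, 1700030N03Rik and Anks1b (0.225 to 0.237). Gria3 appeared in both sets, whereas Npffr1 with Svop gave 0.110. The most frequently detected genes of the sets were in 29.1% of cells, and phi is limited by such unequal shares, Svop being in 1.84%.

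Of 9 other listed genes of the RFamide system, 6 were too low to be tested in the keratinocyte fit. Of the 3 tested, edgeR called 0, 0 had an unadjusted p under 0.05, and DESeq2 called 0, a count too small to set apart from the 20103 genes tested, of which 6.29% were called (4.03% raised and 2.26% lowered in TKO). The share of all genes with an unadjusted p under 0.05 is not given. Counts at that threshold, for this and each later list or window, therefore cannot be read as enrichment. Npff, the gene of the receptor's ligand neuropeptide FF, had 16 and 9 UMIs in Ctrl keratinocytes and 5 and 9 in TKO, and Npvf, of the ligand RFRP, had 0 in each library. Npffr2, the second receptor of the family, had 1 and 0 in Ctrl and 0 and 1 in TKO, in contrast to Npffr1. Of 36 receptors for other neuropeptides, 7 were tested and 0 called by edgeR (4 at an unadjusted p under 0.05, and 0 with DESeq2).

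Of 18 genes of Gi/o signalling, through which Npffr1 acts, 14 were tested, and edgeR called 1 raised and 1 lowered (7 at an unadjusted p under 0.05). These are 14.3% of those tested, against 6.29% of all genes. DESeq2, which called 12.9% of all genes, called 6, of which Adcy2 was raised and Adcy1, Adcy6, Adcy9, Gnai1 and Gnao1 were lowered. Adcy2, an adenylyl cyclase gene, had 0.907 and 0.627 CPM in Ctrl and 6.31 and 3.27 CPM in TKO (log2 change 2.60, SE 0.40, adjusted p = 0.0291). Gnao1, of the Go α subunit, fell from 3.12 and 3.40 CPM to 0.864 and 0.846 CPM (log2 -1.95, SE 0.23, adjusted p = 0.0168). Both lost their call without Ctrl replicate 1 and without Ctrl replicate 2. Gnai1, Gnai2 and Gnai3, the more abundant Gi subunit genes at 126 to 252 CPM on average in Ctrl, were not called by edgeR (log2 -0.55 to 0.30). Gnai1, at 233 and 270 CPM in Ctrl and 163 and 186 CPM in TKO, was called lowered by DESeq2 (log2 -0.54).

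Of 32 listed genes of the synaptic vesicle, 27 were tested, with 1 raised and 5 lowered by edgeR (10 at an unadjusted p under 0.05, and 6 with DESeq2), or 22.2% called against 6.29% of all genes with edgeR and 12.9% with DESeq2, and a median log2 change of -0.41 against -0.02 over all genes. Rims1, of the presynaptic active zone, rose from 0.702 and 0.783 to 13.3 and 8.09 CPM (log2 3.81, SE 0.30, adjusted p = 0.00643). The synapsin gene Syn2 fell from 3.07 and 3.06 to 0.150 and 0.110 CPM (log2 -4.56, adjusted p = 0.00449). The SNARE gene Snap25 fell by 3.56 on the log2 scale (adjusted p = 0.00798) and the vesicle GTPase gene Rab3c by 3.02 (adjusted p = 0.0204). Slc6a17 and Pclo were the other genes lowered, and lost their call without Ctrl replicate 1, Slc6a17 also without Ctrl replicate 2. Of 4 SVOP and SV2 relatives, all tested, 0 were raised and 1 lowered, a count too small to read against those shares. Sv2c fell by 2.22 (SE 0.29, adjusted p = 0.0194; not called without Ctrl replicate 1), whereas Svopl, the closest relative of Svop, had 1.38 and 0.575 CPM in Ctrl and 1.16 and 1.27 CPM in TKO (log2 0.28, adjusted p = 0.755). Sv2a, the SV2 form found at most synapses, had 1.11 and 1.65 against 1.18 and 0.607 CPM (log2 -0.66, adjusted p = 0.380). Of 21 neuron markers such as Tubb3 and Elavl3, 15 were tested and 0 called by edgeR (6 at an unadjusted p under 0.05, and 1 with DESeq2). Their median log2 change was -0.82, and their summed level, carried mostly by Nsg1 and Map2, was 72.5 and 74.8 CPM in Ctrl against 60.2 and 63.6 CPM in TKO.

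Merkel cells, touch receptors of the epidermis that express synaptic vesicle genes, moved with some of these lowered genes. The Merkel-like cells numbered 35 and 26 in Ctrl and 32 and 13 in TKO, but Atoh1, which defines the lineage, had 258 and 193 UMIs in Ctrl keratinocytes and 0 and 0 in TKO. Those in Ctrl held 91.4% and 82.4% of Syn2, 98.0% and 91.8% of Rab3c and 91.3% and 74.4% of Sv2c UMIs. They held less of the other lowered genes, 59.5% and 68.4% of Snap25, 44.8% and 28.8% of Pclo, 23.9% and 16.4% of Gnao1 and 1.93% and 4.35% of Slc6a17. Without Merkel-like cells, a fit added after the data were seen, 6 of the 9 list genes called over all lists remained called, among them these 4 (log2 -2.20, -1.06, -1.65 and -1.87), and Syn2 (log2 -2.23, adjusted p = 0.0968), Rab3c (1.31, adjusted p = 0.334) and Sv2c (0.43, adjusted p = 0.625) did not pass. In TKO these cells held 1.82% and 1.21% of Npffr1 UMIs and 0.833% and 12.9% of Svop UMIs, the latter 26 UMIs in 2 cells.

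To see whether the surrounding genes changed with them, genes within 250 kb were counted in the same keratinocyte fit. Around Npffr1, 13 of 28 annotated genes were tested, and edgeR called 2 raised and 0 lowered (4 at an unadjusted p under 0.05). DESeq2 called 4 raised, adding Lrrc20 and Gm47595. Gm28447, the antisense noncoding RNA gene that overlaps Npffr1, counted 2 and 0 UMIs in Ctrl against 91 and 96 in TKO (1.71 and 1.76 CPM, log2 6.57, SE 0.66, adjusted p = 0.0106). How the counting used strand is not given in the sources used here, so reads from Npffr1 and Gm28447, or from Svop and Usp30, may not be told apart. Ppa1, an inorganic pyrophosphatase gene 19476 bases away, rose from 115 and 107 to 186 and 184 CPM (log2 0.71, SE 0.09, adjusted p = 0.0205), but was not called without Ctrl replicate 1, without Ctrl replicate 2 or with a replicate block. The nearest tested gene that does not overlap, Lrrc20, had 11.1 and 8.10 CPM in Ctrl and 17.1 and 18.3 CPM in TKO and did not pass in edgeR (log2 0.85, adjusted p = 0.0714). Around Svop, 12 of 28 genes were tested and 0 called by edgeR (1 at an unadjusted p under 0.05 and 1 with DESeq2), at log2 changes from -1.02 to 0.83. Usp30, which shares sequence with Svop on the other strand, had 6.57 and 7.36 CPM in Ctrl and 8.04 and 7.50 CPM in TKO (log2 0.13, adjusted p = 0.668). Dao, a D-amino acid oxidase gene 1108 bases from Svop, was too low to be tested, with 2 and 1 Ctrl UMIs against 91 and 3 TKO UMIs, so that 1 library held nearly all of its UMIs. Over both windows edgeR called 2 of 25 neighbours, or 8.0% against 6.29% of all genes, and DESeq2 5, against 12.9% of all genes.

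**Figure D5:**
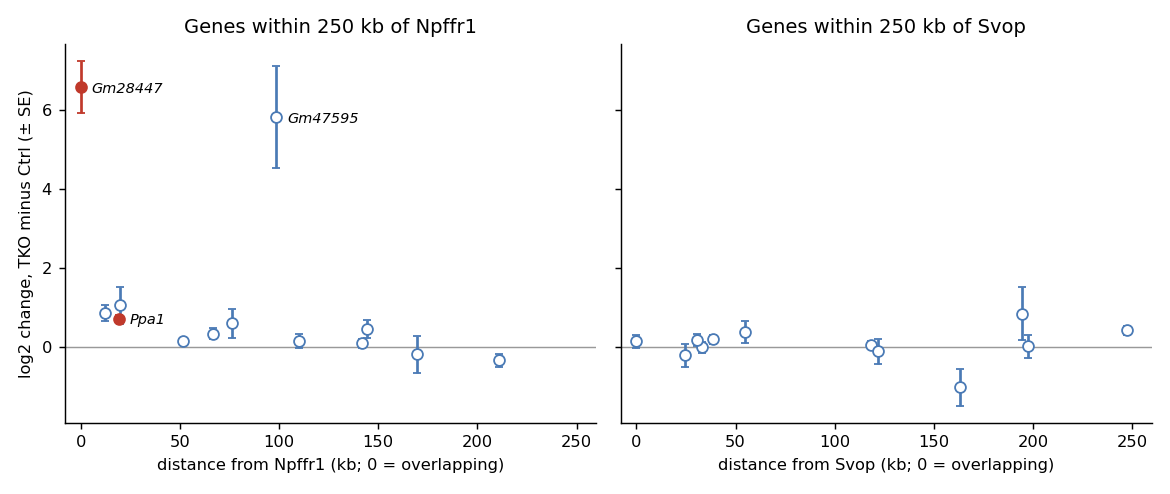
Log2 change in TKO keratinocytes (y axis, ± SE) of genes tested within 250 kb of Npffr1 (left) and Svop (right), by distance in kb; filled red points passed an adjusted p of 0.05. Gm28447 (6.57), which overlaps Npffr1, and Ppa1 (0.71) were raised, Gm47595 (5.81, adjusted p = 0.0630 in edgeR) did not pass, and none of the 12 genes near Svop passed.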

How the data were processed

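Single-cell RNA was captured with a 10x Genomics 3′ kit. The authors deposited filtered matrices of UMI counts per gene and barcode, not normalized, written by Cell Ranger 7.1.0 per the file headers. The members and gene lists were chosen with earlier results of these data known. Cells with at least 2000 genes and under 10% mitochondrial UMIs were kept (11221), and the highest Scrublet scores were left out as doublets at 0.8% per 1000 barcodes (457). Cells were aligned with Harmony and clustered (Leiden, resolution 1; scanpy 1.11.5, Python 3.11.15), without the members and genes that changed, and named from markers. Counts were summed per library and class and tested with edgeR 4.0.16 (R 4.3.3; TMM factors, default expression filter, Benjamini-Hochberg adjusted p under 0.05), tested on simulated data. The class fit used library as a block, and the TKO against Ctrl fit genotype alone. Depth was 70749496 to 89655247 UMIs per library. Exact binomial (Clopper-Pearson) and Poisson 95% intervals cover counting error only, and p-values rest on 2 embryos per group. Positions are from GENCODE vM39 on GRCm39, in which 744 of 56980 genes were unmatched. Named genes were the members, Npffr2, Svopl and Sv2a, up to 4 called genes of largest change per list or window, and the 5 most similar per member; others were named after their values were seen. Alternatives were a minimum of 3000 genes, doublets kept, no alignment, other resolutions, depths and windows, RLE factors, DESeq2 1.42.0, no expression filter, a replicate block and leaving out each library.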

Additional observations from a re-analysis of the deposited data

Results flagged for a closer look

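Barcodes below the cell filter, used in no comparison, also held both genes in TKO above Ctrl. Npffr1 reached 41.4 CPM in TKO replicate 1 and 61.1 CPM in replicate 2. Svop reached 16.7 CPM in replicate 1 and 3.39 CPM in replicate 2.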

How the results depend on the processing

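With 2 embryos per group, counts of calls depended on single libraries. Within TKO, Npffr1 in suprabasal-like minus basal-like cells turned to 0.031 with doublets kept and 0.30 with cells thinned to 5000 UMIs, and ranged from -0.51 to 0.17 on leaving out 1 library. Npffr1 ranged from -1.46 to -0.93 for hair follicle-like minus basal-like and 0.95 to 1.10 for suprabasal-like minus hair follicle-like. Svop in suprabasal-like minus basal-like cells passed without alignment (-1.16) and at resolution 2 (-1.59), ranging from -0.82 to -0.26 over libraries left out. Svop in hair follicle-like minus basal-like cells missed with DESeq2 (-1.48) and ranged from -1.75 to -1.27. Svop in suprabasal-like minus hair follicle-like cells passed with doublets kept (1.63), no alignment (1.73), resolution 0.5 (1.21) and no expression filter (1.04), ranging from 0.46 to 1.49. With the unnamed cluster led by Krt79 counted as hair follicle, chosen after seeing the data, hair follicle-like minus basal-like no longer passed for Npffr1 (-0.63) or Svop (-0.58), nor did suprabasal-like minus hair follicle-like for Npffr1 (0.44). Svop did not pass the expression filter in the thinned class fit and has no value there.

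With thinned cells, 5575, 2545 and 6184 genes were called for the 3 class differences, and 5282 to 7877, 2913 to 3322 and 6973 to 9087 over libraries left out. Of genes called between TKO and Ctrl, thinning gave 780 and DESeq2 2590, against 1265, with 388 to 1955 over libraries left out. DESeq2 called 5 neighbours and 14 list genes, against 2 and 9, with 1 to 3 and 4 to 13 over libraries left out. Npffr1 was in 17.3% of TKO keratinocytes with all UMIs and 11.1% at 10000 UMIs, against 7.93% (7.35 to 8.51%), and Svop in 6.27% and 3.58%, against 1.84% (1.28 to 2.39%). The ratio of co-detection was 3.09 to 4.73. The causes were not tested.

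The replicate numbers did not pair the samples (correlation of deviations -0.38 over 9557 genes). The paper states that both sexes were included in each group of its sequencing experiments. Replicates of a group may thus differ in sex, which was not tested. The replicate block gave 660 genes, 1 neighbour and 8 list genes called. A crossed replicate block, chosen after seeing the data, gave 3220, 6 and 17.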
